A study of Mus musculus with 18 samples.

Results

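Nuclear pore and transport genes were followed through 3 RNA fractions of mouse haematopoietic stem cells (HSCs). They were chosen by gene name. Names beginning with Nup, Xpo, Ipo or Tnpo and a digit, with Kpna or Kpnb, or with Thoc and a digit were taken, together with Tpr, Ranbp2, Pom121, Rae1, Seh1l, Aaas, Nxf1, Nxt1 and Alyref. This gave 59 of the 23038 genes in both deposited tables. Of these, 38 averaged 10 RPKM or more over the 6 columns of the tables, as did 6295 genes in all, and the comparisons cover these. RPKM is the read count divided by gene length in kilobases and by library depth in M reads (M for mega). Ndc1, also named by the rule, is listed under its older symbol Tmem48, and was left out of all counts.

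The Mettl3-deficient mice were Mx1-cre; Mettl3 fl/fl, in which pIpC induces the Cre recombinase through interferon and removes the floxed Mettl3 gene. The controls were labelled wild-type. Mice of both genotypes were C57BL/6, received 5 doses of 10 µg pIpC and were killed 10 days after the last, per the labels. Mx1-cre responds to interferon in many cell types, so the deletion is not restricted to HSCs. Lineage- Sca1+ cKit+ CD150+ CD48- cells were sorted from the bone marrow, 3000 per sample. Their polyadenylated RNA was divided with 1.25 µg of antibody against N6-methyladenosine (m6A), the methyl mark that the Mettl3 enzyme writes on mRNA. Each genotype has an m6A-tagged fraction (bound and eluted), an unbound fraction (the pooled washes) and an input fraction, with 3 libraries per fraction and 18 in all. The study's title asks for m6A targets that depend on Mettl3.

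The nuclear pore is built from nucleoporins, arranged as an outer ring, an inner ring, membrane anchors, a central channel lined with phenylalanine-glycine (FG) repeats, cytoplasmic filaments and a nuclear basket. Importins and exportins (karyopherins) carry proteins and some RNAs through the channel under the control of the GTPase Ran. Most mRNA leaves by another route, in which the THO complex and the adaptor Alyref load the receptor pair Nxf1 and Nxt1 onto the transcript. m6A on mRNA is laid down in the nucleus, before export.

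Each table holds 1 column per fraction, the mean of 3 libraries, so a difference between columns has no replicate spread, no p-value is given for it and a 2-fold difference is used as a size, not as a test. Depth was 9.42 to 33.59 M reads per library in Mettl3-deficient cells and 24.3 to 37.22 M in wild-type cells. Mettl3 itself had 17.4 RPKM in m6A-tagged, 11.2 RPKM in unbound and 19.6 RPKM in input RNA of Mettl3-deficient cells, against 36.1, 33.2 and 36.4 RPKM in wild-type cells. Of 10 HSC markers, 8 reached 10 RPKM in Mettl3-deficient input and 9 in wild-type input. Markers of other cells differed between the genotypes. The summed level of 4 neutrophil markers was 485 RPKM in Mettl3-deficient input and 3320 RPKM in wild-type input, that of 2 eosinophil markers 5.80 and 718 RPKM, and Cd48, which the sort excludes, had 5.54 and 15.5 RPKM. Erythroid, T cell and megakaryocyte markers were also lower in Mettl3-deficient input, at 6.28, 1.36 and 185 RPKM, against 48.6, 14.8 and 577 RPKM in wild-type input. Monocyte and macrophage markers (62.0 and 25.2 RPKM) and stromal and endothelial markers (58.7 and 22.1 RPKM) were higher in Mettl3-deficient than in wild-type input, and B cell markers were close, at 91.4 and 93.6 RPKM. Their part in the differences between genotypes was not tested. In such bulk samples fewer cells of a type and less RNA per cell cannot be told apart. Reads could be resolved by library for some genes without any read in at least 2 of the 6 columns, a choice that favours uneven genes. Those averaging 60 to 150 reads per library in a column were counted. In 63.2% of 19 such genes in Mettl3-deficient unbound RNA and 61.7% of 47 in wild-type unbound RNA at least 90% of the reads came from 1 library. In m6A-tagged RNA the share was 15.0% of 133 Mettl3-deficient genes and 83.2% of 137 wild-type genes. The genes counted differ between columns, and the shares do not describe low genes in general.

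Rae1, an mRNA export factor docked on the cytoplasmic side of the pore, had the highest mean level of the 59 genes, with 246 RPKM in m6A-tagged, 337 RPKM in unbound and 239 RPKM in input RNA of Mettl3-deficient cells, against 141, 181 and 184 RPKM in wild-type cells. It was followed by Nxt1, Nup85, Thoc7, Nxf1 and Thoc6, with means of 148, 128, 118, 115 and 92.8 RPKM over the 6 columns. Of these 6 genes, 4 encode THO subunits or the export receptor pair. Nup210l, Nup62cl and Kpna7, relatives of Nup210, Nup62 and the importin alpha genes, were the lowest. Nup62cl had 0 reads in all 18 libraries, and Kpna7 had 1 read in 1 Mettl3-deficient input library. Nup210l had 81 reads in Mettl3-deficient input, 73 of them in 1 library, and 93 reads in wild-type input, in 2 of the 3 libraries. The minimum of 10 RPKM fell between Xpo6 (13.5 RPKM) and Thoc2 (10.8 RPKM), just inside it, and Pom121 (9.99 RPKM) and Kpna2 (9.54 RPKM), just outside.

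**Figure D1:**
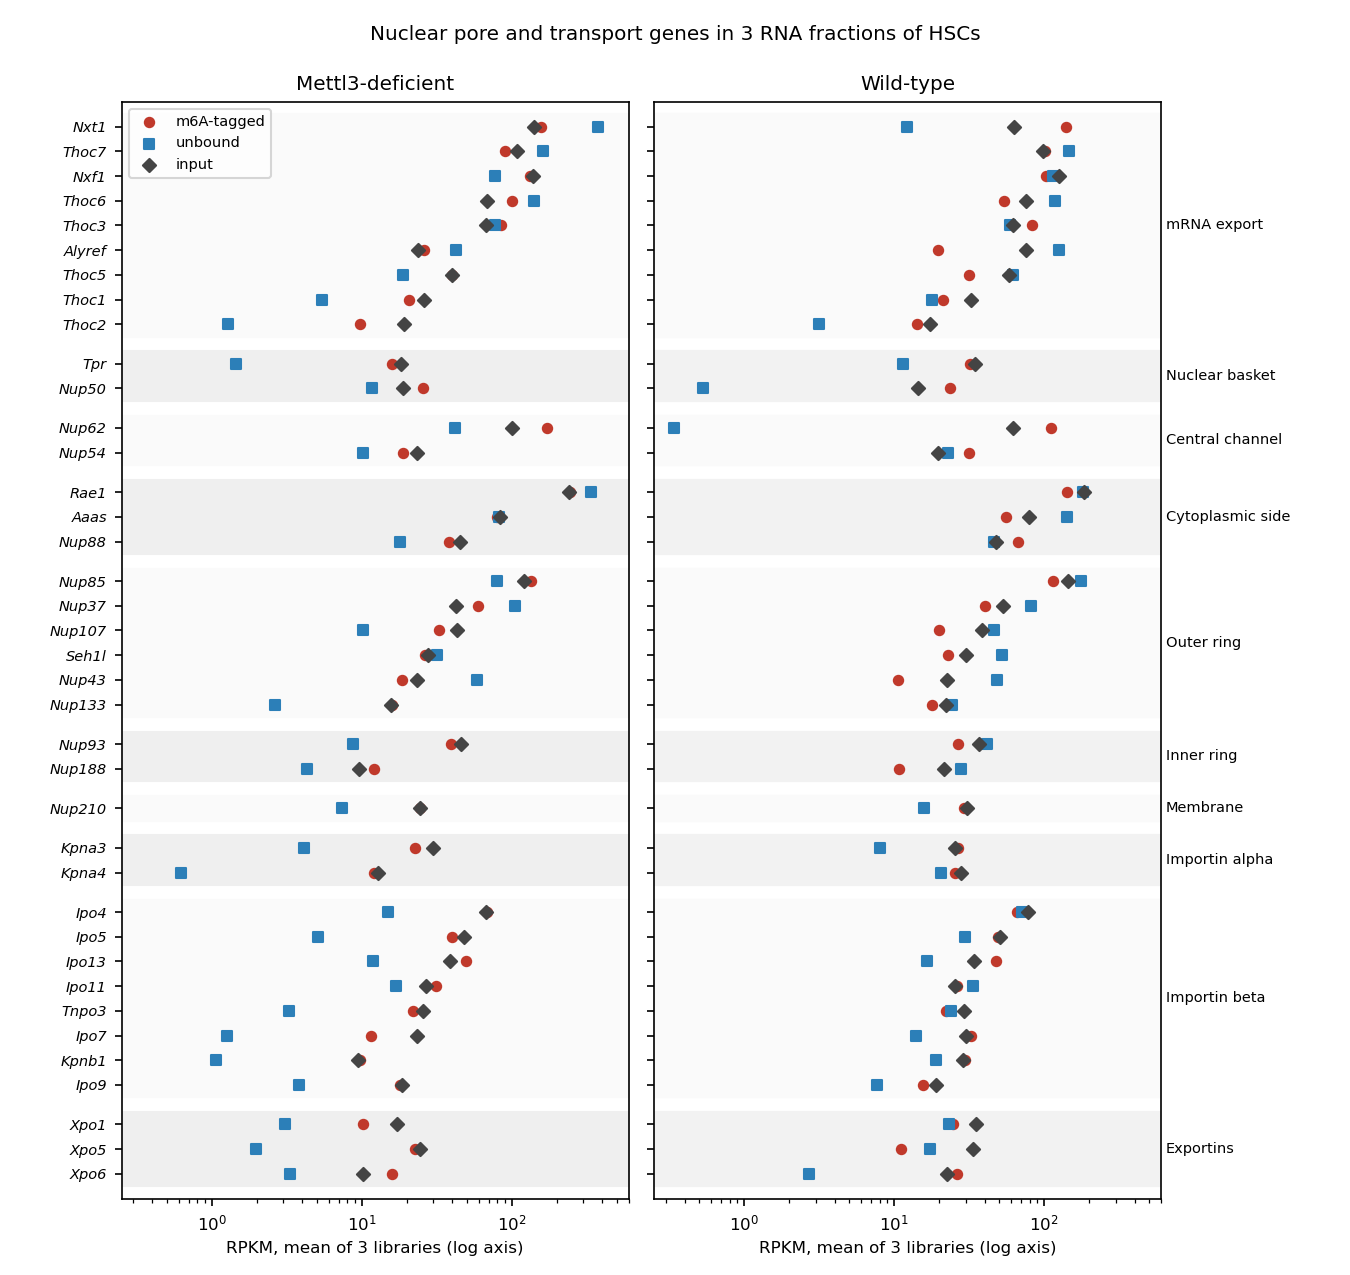
RPKM (log axis, mean of 3 libraries per point, no error available) of the 38 genes averaging 10 RPKM or more, by role, in Mettl3-deficient cells (left) and wild-type cells (right). Circles are m6A-tagged, squares unbound and diamonds input RNA. Unbound RNA lies left of both other fractions for 28 genes in Mettl3-deficient cells and for 18 in wild-type cells, with Nup62 and Nup50 farthest left in wild-type cells at 0.341 and 0.529 RPKM.

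In Mettl3-deficient cells the transcripts of most of these genes were less abundant in the unbound than in the m6A-tagged fraction. Between m6A-tagged and unbound RNA, on the log2(RPKM + 1) scale used for all differences, 24 of the 38 genes (63.2%) were at least 2-fold higher in m6A-tagged RNA, where 33.7% of all genes compared were, and 2 (5.26%) were lower, against 16.9% of all genes. The median difference was 1.52 for the pore and transport genes and 0.33 for all genes. In wild-type cells 9 of the 38 (23.7%) were past 2-fold toward m6A-tagged and 7 (18.4%) toward unbound RNA, against 31.5% and 19.3% of all genes. The wild-type median was -0.01, and 0.12 for all genes. The 2 genotypes share no library in these comparisons. Of the 24 genes past 2-fold in Mettl3-deficient cells, 8 were also past it in wild-type cells, 14 lay between the limits there and 2, Nup107 and Nup188, were 2-fold lower there. The same split over all genes was not computed, so whether it is particular to these genes is not known. The counts depend on level. Among the 12 genes averaging 50 RPKM or more, the Mettl3-deficient median was -0.25, and -0.40 for all genes above that minimum.

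The unbound fraction carried this difference. Unbound RNA was the lowest of the 3 Mettl3-deficient fractions for 28 of the 38 genes and for 51.8% of all genes, and the lowest of the 3 wild-type fractions for 18 of the 38 and for 47.3% of all genes. Against input, 23 genes were 2-fold lower in Mettl3-deficient unbound RNA (29.5% of all genes) and 4 were higher (18.5% of all genes), with a median of -1.34, and -0.13 for all genes. In wild-type unbound RNA 10 were lower than in input (25.5% of all genes) and 1, Nup43, was higher (4.61% of all genes). Mettl3-deficient m6A-tagged RNA stayed within 2-fold of its input. No gene of the 38 was 2-fold higher or lower there, against 1.37% and 1.45% of all genes, and the differences ran between -0.97 (Ipo7) and 0.76 (Nup62), with Thoc2 at -0.92 and Xpo1 at -0.71. The comparisons with unbound RNA share the unbound column, so they are not separate evidence.

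**Figure D2:**
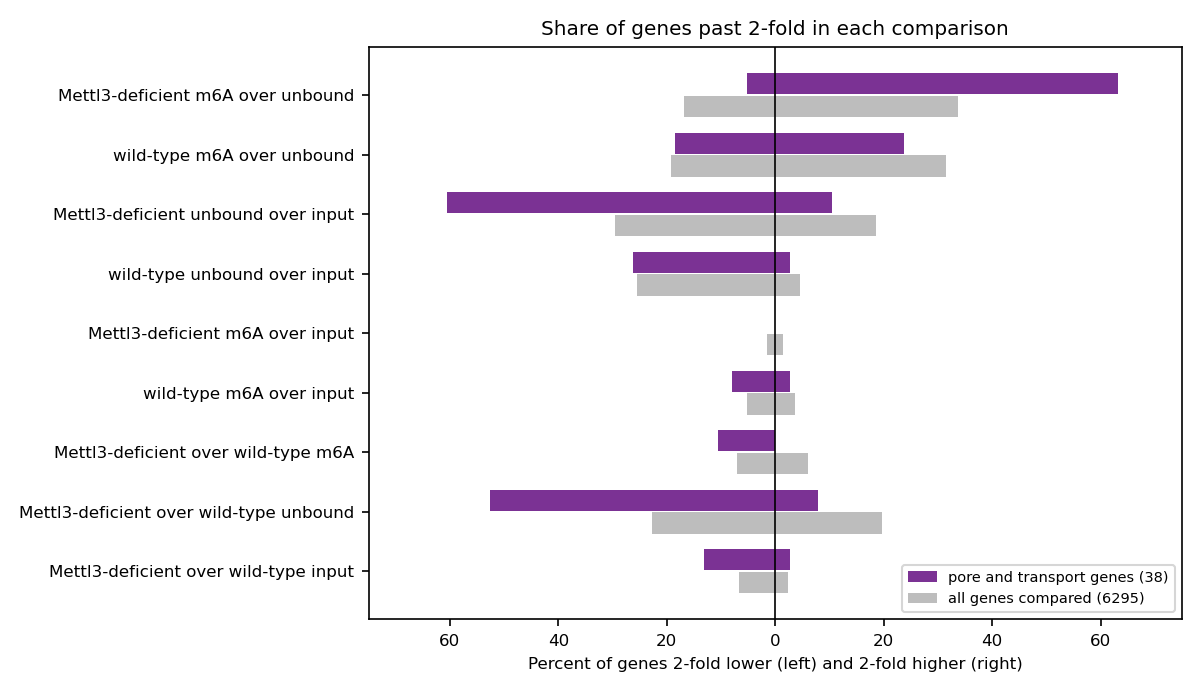
Percent of the 38 pore and transport genes (purple) and of the 6295 genes compared (grey) that were at least 2-fold lower (bars to the left) or higher (bars to the right) in each comparison. The purple bar is much longer than the grey one in Mettl3-deficient m6A over unbound RNA (63.2% against 33.7% higher), Mettl3-deficient unbound over input RNA (60.5% against 29.5% lower) and unbound RNA between genotypes (52.6% against 22.7% lower).

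Most importins were low in Mettl3-deficient unbound RNA. Kpnb1, the importin beta that carries classical nuclear cargo, had 9.69 RPKM in m6A-tagged, 1.06 RPKM in unbound and 9.45 RPKM in input RNA of Mettl3-deficient cells, against 29.7, 19.02 and 28.6 RPKM in wild-type cells. Its unbound value was low in Mettl3-deficient cells alone, while all 3 fractions were lower in Mettl3-deficient than in wild-type cells. Of the 8 importin beta and transportin genes compared, 7 passed 2-fold toward m6A-tagged over unbound RNA in Mettl3-deficient cells (33.7% of all genes). In wild-type cells 2 did, Ipo13 and Ipo7 (31.5% of all genes). Ipo5, a carrier of ribosomal proteins and histones, had 39.9, 5.11 and 47.7 RPKM in m6A-tagged, unbound and input RNA of Mettl3-deficient cells, against 49.3, 29.7 and 50.4 RPKM in wild-type cells. Tnpo3, which imports serine-arginine rich splicing factors, had a difference of 2.44 in Mettl3-deficient cells and -0.11 in wild-type cells. Ipo11 was the exception, at 0.85 in Mettl3-deficient cells and -0.34 in wild-type cells.

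The importin alpha genes encode adaptors that hold the nuclear localisation signal of a cargo. Kpna4 had 12.01 RPKM in m6A-tagged, 0.627 RPKM in unbound and 12.8 RPKM in input RNA of Mettl3-deficient cells, against 25.4, 20.5 and 27.8 RPKM in wild-type cells. Its difference between m6A-tagged and unbound RNA, 3.00 in Mettl3-deficient cells, was the largest of the 38, and was 0.30 in wild-type cells. The Mettl3-deficient size and its rank depend on the added 1 RPKM, since the unbound value is below it. Kpna3 differed less between the genotypes, with 2.22 in Mettl3-deficient cells and 1.62 in wild-type cells.

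Among the exportins, Xpo1, the receptor for leucine-rich export signals, had 10.1, 3.08 and 17.2 RPKM in m6A-tagged, unbound and input RNA of Mettl3-deficient cells, against 24.7, 23.3 and 35.0 RPKM in wild-type cells. Xpo5, the exporter of microRNA precursors, had 22.6, 1.97 and 24.6 RPKM in Mettl3-deficient cells, against 11.1, 17.4 and 33.5 RPKM in wild-type cells. Xpo5 was thus near its input in the Mettl3-deficient m6A-tagged fraction and well under it in the wild-type one. Its change between genotypes in m6A over unbound RNA, 3.59, was the 22nd highest of 6295 genes. Xpo6, which exports actin with profilin, was low in unbound RNA of both genotypes, at 3.30 RPKM in Mettl3-deficient cells and 2.68 RPKM in wild-type cells.

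The scaffold of the pore was less uniform. In the outer ring (the Y complex), Nup107 had 32.9, 10.2 and 43.2 RPKM in m6A-tagged, unbound and input RNA of Mettl3-deficient cells, against 20.0, 46.6 and 38.7 RPKM in wild-type cells, and Nup133 had a difference between m6A-tagged and unbound RNA of 2.22 in Mettl3-deficient cells and -0.43 in wild-type cells. Nup43, Nup37 and Seh1l, smaller beta-propeller subunits of the same complex, had -1.60, -0.81 and -0.24 in Mettl3-deficient cells and -2.09, -0.996 and -1.14 in wild-type cells. Nup43 lies inside the span of Pcmt1, and 9 of the 38 genes overlap another coding gene, whose reads cannot be told apart from theirs where strand is not stated. Subunits of the outer ring stood on both sides of 0 in Mettl3-deficient cells, while all 6 outer ring genes compared were below 0 in wild-type cells. Nup93 and Nup188 of the inner ring, at 2.05 and 1.31 in Mettl3-deficient cells, were at -0.62 and -1.31 in wild-type cells. The membrane nucleoporin Nup210 had 1.61 in Mettl3-deficient cells and 0.86 in wild-type cells, and Tpr, the main filament of the nuclear basket, 2.79 and 1.40. Of the cytoplasmic side, Nup88 had 1.06 in Mettl3-deficient cells and 0.52 in wild-type cells, whereas Rae1 had -0.45 and -0.36 and Aaas -0.04 and -1.34.

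The mRNA export genes were split as well. Thoc2, the largest scaffold of the THO complex, had 9.66, 1.27 and 19.2 RPKM in m6A-tagged, unbound and input RNA of Mettl3-deficient cells, against 14.2, 3.16 and 17.3 RPKM in wild-type cells. Its unbound value was lowest in both genotypes. Thoc1 and Thoc5 had differences between m6A-tagged and unbound RNA of 1.74 and 1.04 in Mettl3-deficient cells, against 0.21 and -0.94 in wild-type cells. Thoc3, Thoc6 and Thoc7 stayed within 2-fold in Mettl3-deficient cells, at 0.12, -0.48 and -0.83. Nxf1, the export receptor, had 132, 77.0 and 139 RPKM in m6A-tagged, unbound and input RNA of Mettl3-deficient cells, against 102, 115 and 126 RPKM in wild-type cells, all within 2-fold.

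**Figure D3:**
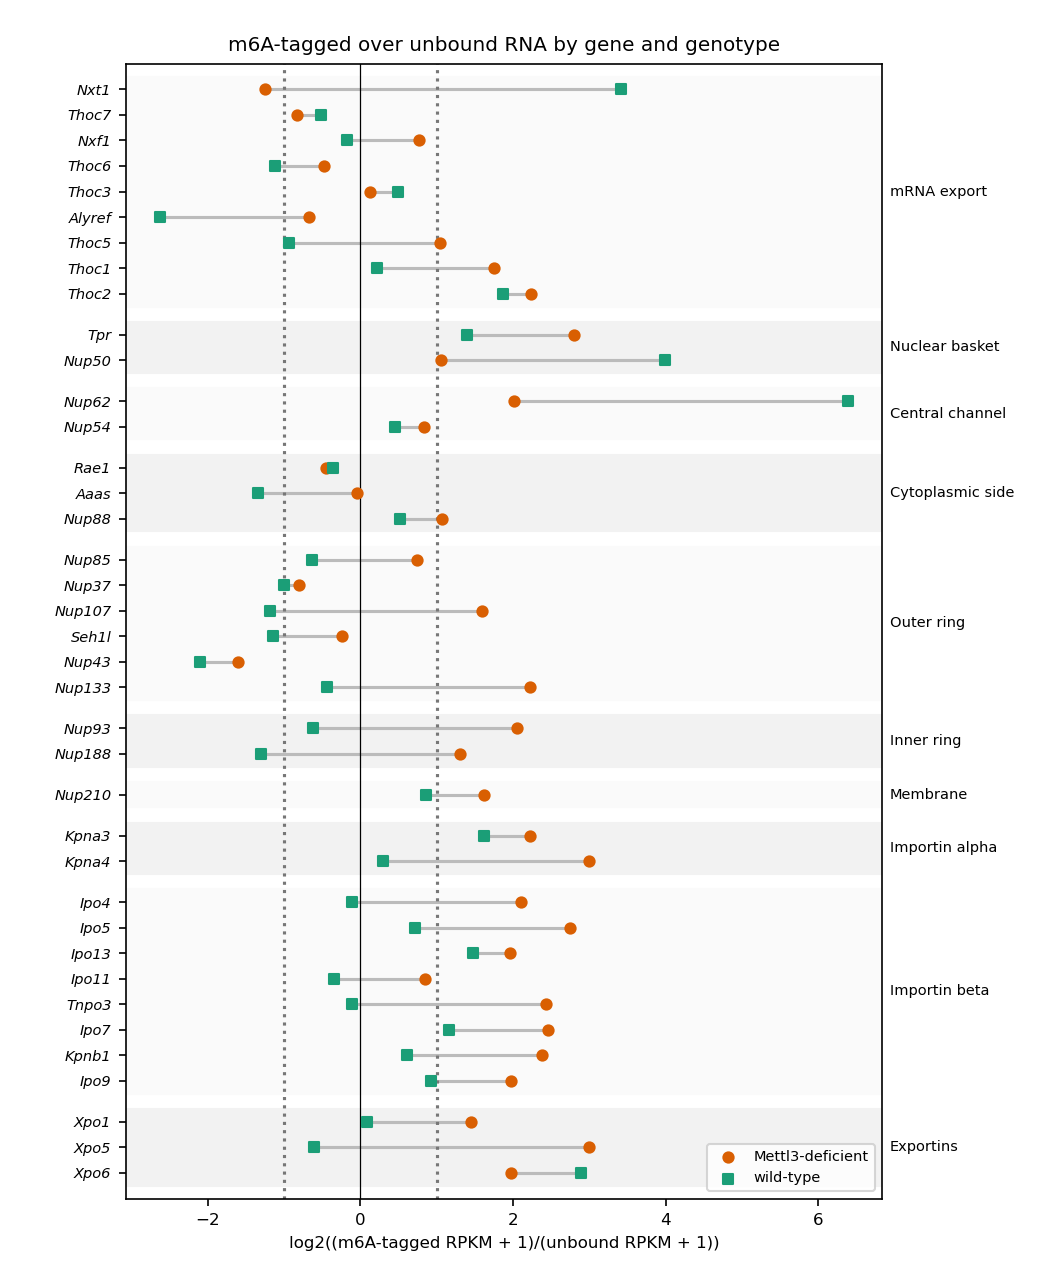
Difference between m6A-tagged and unbound RNA, log2((RPKM + 1)/(RPKM + 1)), of each of the 38 genes in Mettl3-deficient (circles) and wild-type cells (squares), with dotted lines at 2-fold. A grey line joins the genotypes of a gene. For 31 genes the Mettl3-deficient point is to the right, and for Nxt1, Nup62 and Nup50 it is over 2-fold to the left.

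The genotype difference in m6A over unbound RNA, the Mettl3-deficient difference minus the wild-type one, was above 0 for 31 of the 38 genes. It passed 2-fold upward for 20 (23.7% of all genes) and downward for 3 (22.8% of all genes), with a median of 1.12, and -0.01 for all genes. After Xpo5, the highest were Nup107 (2.78), Kpna4 (2.70), Nup93 (2.66), Nup133 (2.65), Nup188 (2.62), Tnpo3 (2.55), Ipo4 (2.22), Ipo5 (2.04) and Thoc5 (1.98). Seen in the unbound fraction alone, 20 genes were 2-fold lower in Mettl3-deficient than in wild-type cells (22.7% of all genes) and 3 were higher (19.7% of all genes). Kpna4 (-3.72) and Kpnb1 (-3.28) were the lowest, and the size for Kpna4 depends on the added 1 RPKM. The neutrophil markers summed to 1027 RPKM in Mettl3-deficient unbound RNA and 4823 RPKM in wild-type unbound RNA, and their part in this was not tested.

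The difference in Mettl3-deficient cells was larger in longer genes. Over the 38 genes the rank correlation (Spearman's rho) of the Mettl3-deficient difference between m6A-tagged and unbound RNA with the genomic span of the gene, introns included (RefSeq, GRCm38.p6), was 0.65, and over 6288 genes with a span it was 0.41. In wild-type cells it was 0.24 over the 38 genes and 0.09 over all. The 13 shortest genes, of 3.4 to 19.5 kb, had a Mettl3-deficient median of -0.04, the 13 of 19.7 to 48.2 kb a median of 1.60, and the 12 of 51.2 to 142.5 kb a median of 2.22. All genes compared within the same spans had Mettl3-deficient medians of 0.04, 0.86 and 1.34. The wild-type medians of the members were -0.36, 0.21 and 0.51. The number in the name of a nucleoporin gives the approximate mass of its protein, and over the 12 Nup genes compared rho with that number was 0.72 in Mettl3-deficient cells and 0.03 in wild-type cells. These are descriptions across genes, which share libraries and depth and are not replicates. Span is not transcript length, which was not used here. Of the genes averaging 50 RPKM or more, all but Nup37 are among the 13 shortest. Span and level therefore cannot be told apart in these genes.

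**Figure D4:**
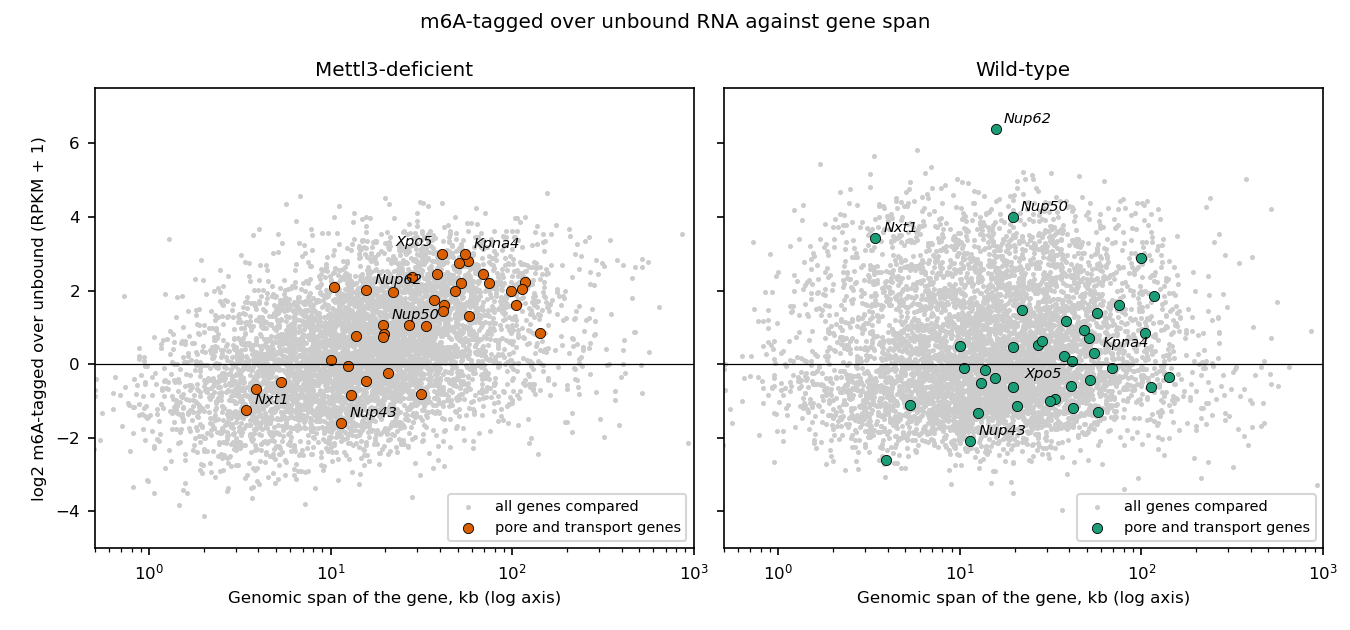
Difference between m6A-tagged and unbound RNA, log2 of RPKM + 1, against genomic span in kb (log axis) for the 38 genes (coloured) over all genes compared (grey), in Mettl3-deficient (left) and wild-type cells (right). The coloured points climb with span on the left (rho 0.65) and scatter on the right (rho 0.24), where Nup62, at 6.38, lies above every other gene.

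Nup62, Nxt1 and Nup50 went the other way: their transcripts were scarce in the unbound fraction of wild-type cells. Nup62, the FG nucleoporin at the core of the central channel, had 171 RPKM in m6A-tagged, 41.6 RPKM in unbound and 100.2 RPKM in input RNA of Mettl3-deficient cells, against 111, 0.341 and 61.7 RPKM in wild-type cells. Its wild-type difference between m6A-tagged and unbound RNA, 6.38, ranked 1 of 6295 genes, and its wild-type unbound over input difference, -5.55, was the lowest of all. In Mettl3-deficient cells the m6A over unbound difference was 2.01. Nxt1, the partner of Nxf1 in the export receptor, had 157, 375 and 141 RPKM in m6A-tagged, unbound and input RNA of Mettl3-deficient cells, against 139, 12.1 and 63.1 RPKM in wild-type cells. The difference between m6A-tagged and unbound RNA was -1.25 in Mettl3-deficient cells and 3.42 in wild-type cells, so the sign was opposite in the genotypes. The sizes for Nup62 and Nup50 rest on the added 1 RPKM, since their wild-type unbound values are below it: the wild-type difference of Nup62 was 7.98 with 0.1 RPKM added and 4.44 with 5 RPKM. Nup50, a basket nucleoporin that helps to release importin cargo, had 25.5, 11.8 and 18.7 RPKM in Mettl3-deficient cells, against 23.4, 0.529 and 14.5 RPKM in wild-type cells. Unbound RNA between the genotypes differed by 4.99 for Nup62, 4.85 for Nxt1 and 3.06 for Nup50, ranks 7, 10 and 93 from the highest of 6295 genes, while m6A-tagged RNA differed by 0.62, 0.17 and 0.12.

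Since these 3 genes shared this pattern, the 250 bases before their first annotated start are shown, from RefSeq (GRCm38.p6, plus strand for all 3), with capitals marking CATGCGC (complement GCGCATG), the core letters bound by the activator NRF1, and CCAAT (complement ATTGG), those bound by NF-Y. Where CATGCGC and its complement overlap they form 1 longer run of capitals. Nup62 (chr7:44815838-44816087) has 2 NRF1 matches in 1 such run close to its start, Nup50 (chr15:84923178-84923427) has 4 in a pair of runs, and Nxt1 (chr2:148672365-148672614) has 0.
Nup62: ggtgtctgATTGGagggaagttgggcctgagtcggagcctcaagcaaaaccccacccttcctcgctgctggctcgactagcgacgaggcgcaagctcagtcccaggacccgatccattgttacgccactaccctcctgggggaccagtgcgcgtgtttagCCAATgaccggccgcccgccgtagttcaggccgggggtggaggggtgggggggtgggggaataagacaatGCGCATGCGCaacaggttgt
Nup50: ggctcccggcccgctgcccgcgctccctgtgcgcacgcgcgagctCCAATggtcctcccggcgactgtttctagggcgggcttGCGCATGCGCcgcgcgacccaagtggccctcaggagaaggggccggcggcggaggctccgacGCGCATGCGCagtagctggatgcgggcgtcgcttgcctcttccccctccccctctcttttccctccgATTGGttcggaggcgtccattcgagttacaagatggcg
Nxt1: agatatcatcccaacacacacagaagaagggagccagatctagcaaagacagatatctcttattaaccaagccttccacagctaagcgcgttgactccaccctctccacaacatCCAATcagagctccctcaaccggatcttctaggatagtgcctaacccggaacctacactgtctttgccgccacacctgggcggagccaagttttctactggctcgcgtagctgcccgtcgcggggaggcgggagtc
The motifs, 4 in all, were chosen after the sequences had been read. Of the 59 genes, 47 have a RefSeq start in the table used, and 7 of these (14.9%), Nup62, Nup50, Nup107, Nup133, Nup188, Rae1 and Xpo5, hold CATGCGC on either strand within the 250 bases, as do 995 of 27025 genes in all (3.68%). CCAAT on either strand occurs in 23 of the 47 (48.9%) and in 37.5% of all genes, CCGGAAG, the letters of ETS factors, in 10 (21.3%) and 7.83%, and TATAAA, those of the TATA box, in 6 (12.8%) and 14.3%. The 27025 genes were not limited to those above the minimum level, unlike the genes compared elsewhere. The motif shares of all genes above the minimum were not computed. Nup62 and Nup50, whose sequences were read before the motifs were chosen, are counted among the 7. Whether the shares set the pore and transport genes apart from genes of like level was therefore not tested. The NRF1 motif did not go with 1 direction. The wild-type difference between m6A-tagged and unbound RNA was 6.38 for Nup62 and 4.00 for Nup50, and between -1.31 and -0.36 for the other 5 genes that hold it. A match is a run of letters and was not tested as a binding site.

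Nup62 shares its locus with Nup62-il4i1, a readthrough gene that RefSeq now calls Il4i1b, and the 2 overlap over 15467 bases of chromosome 7. How the counting treated strand and overlap is not stated, so the reads of the pair cannot be told apart with certainty. Il4i1 itself, the downstream gene, stayed under 0.53 RPKM in all 6 columns. Nup62-il4i1 is below the minimum, but its values and a length of 695 bases gave the reads of each library, listed here by falling depth, which says nothing of their replicate numbers. Mettl3-deficient unbound libraries had 39, 7 and 28 reads, against 0, 3 and 1 in wild-type unbound libraries. The 0 allows up to 0.158 RPKM (3 reads). Mettl3-deficient m6A-tagged libraries had 403, 167 and 157 reads, against 247, 383 and 253 in wild-type ones, and Mettl3-deficient input libraries 154, 110 and 50, against 173, 250 and 149. As RPKM without the added read, unbound RNA had 2.02 ± 1.29 in Mettl3-deficient cells and 0.0737 ± 0.0819 in wild-type cells (SD, n = 3 each), and the groups did not overlap (two-sided exact permutation test, p = 0.1, the smallest that 3 against 3 libraries allow; adjusted p = 0.3 over 3 fractions). m6A-tagged RNA had 11.3 ± 5.20 and 12.8 ± 3.18 RPKM and input RNA 7.39 ± 0.235 and 8.34 ± 2.15 RPKM in Mettl3-deficient and wild-type cells (exact permutation p = 0.6 and 0.8), with overlapping groups in both. All 3 m6A-tagged libraries lay above all 3 unbound libraries in each genotype. The wild-type unbound value of this overlapping gene was thus low in every library, on 4 reads in total. Since its reads may be shared with Nup62, this is not separate evidence for Nup62. For Nup62, Nxt1 and Nup50 the deposited means alone are known. The share of all genes whose unbound libraries do not overlap between the genotypes was not computed. Nor was the share whose m6A-tagged and unbound libraries do not overlap within a genotype.

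**Figure D5:**
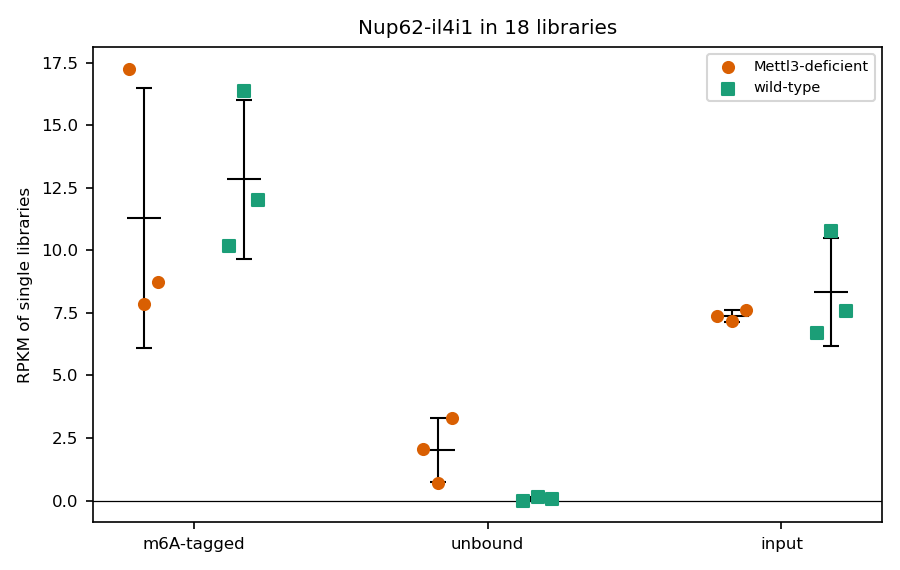
RPKM of Nup62-il4i1 in the 18 single libraries, by fraction, for Mettl3-deficient (circles, left of each pair) and wild-type cells (squares). Black bars are the mean and SD of 3 libraries. Wild-type unbound libraries sit at 0 to 0.162 RPKM, below the lowest Mettl3-deficient unbound library at 0.723 RPKM.

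Against input, m6A-tagged RNA singled out few of these genes in wild-type cells. Of the 38, 1 gene was 2-fold higher in wild-type m6A-tagged RNA, where 3.69% of all genes were, and 3 were lower, where 5.23% were. Nxt1 was the higher one, at 1.12. Alyref, Xpo5 and Nup43 were lower, at -1.88, -1.51 and -1.004. Alyref, the adaptor that brings Nxf1 and Nxt1 to spliced mRNA, had 26.1 RPKM in m6A-tagged, 42.2 RPKM in unbound and 23.8 RPKM in input RNA of Mettl3-deficient cells, against 19.6, 126 and 75.3 RPKM in wild-type cells. Alyref was thus similar between the genotypes in m6A-tagged RNA, and higher in wild-type cells in the other fractions. Its wild-type m6A over input difference ranked 23 from the lowest of 6295 genes.

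The genotype difference in m6A over input passed 2-fold upward for Alyref (2.01), Xpo5 (1.40), Nup188 (1.25) and Thoc6 (1.04), 4 of 38 genes against 7.31% of all genes, and downward for Ipo7 (-1.08), against 2.91% of all genes. Alyref ranked 29 from the highest. For Alyref and Nup188, an inner ring scaffold, the Mettl3-deficient input was itself lower than the wild-type input, and for Xpo5 and Thoc6 the m6A-tagged value was higher in Mettl3-deficient cells, with 22.6 against 11.1 RPKM and 101 against 53.6 RPKM. Ipo7, an import receptor for ribosomal proteins, had 11.5 RPKM in m6A-tagged and 23.4 RPKM in input RNA of Mettl3-deficient cells, against 32.5 and 30.1 RPKM in wild-type cells.

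Fewer genes passed 2-fold between the genotypes in input than in unbound RNA. In input RNA, 1 gene, Nxt1 (1.15), was 2-fold higher in Mettl3-deficient than in wild-type cells (2.38% of all genes) and 5 were lower (6.67% of all genes), namely Alyref (-1.62), Kpnb1 (-1.50), Nup188 (-1.09), Xpo6 (-1.06) and Kpna4 (-1.06). In m6A-tagged RNA none of the 38 was higher (6.02% of all genes) and 4 were lower (7.15% of all genes), namely Kpnb1 (-1.52), Ipo7 (-1.43), Xpo1 (-1.21) and Kpna4 (-1.02). Kpnb1 and Kpna4, which together form an import receptor, were lower in all 3 fractions of Mettl3-deficient cells. Medians over the 38 genes were -0.10 in input and 0.08 in m6A-tagged RNA, against -0.05 and -0.01 for all genes. The neutrophil and eosinophil markers given above also differed in input, and their part was not tested.

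The 21 genes below the minimum included the large FG nucleoporins. Nup98 had 4.57, 0.458 and 3.91 RPKM in m6A-tagged, unbound and input RNA of Mettl3-deficient cells, against 7.65, 2.60 and 9.03 RPKM in wild-type cells. Ranbp2, the SUMO ligase of the cytoplasmic filaments, had 3.14, 0.588 and 4.19 RPKM in Mettl3-deficient cells, against 7.05, 0.7002 and 5.76 RPKM in wild-type cells. Unbound RNA was the lowest fraction in both genotypes for both genes. Tnpo1, the import receptor for proline-tyrosine signals, had 2.80, 1.47 and 5.51 RPKM in Mettl3-deficient cells, against 2.96, 3.91 and 5.30 RPKM in wild-type cells. Kpna2, the importin alpha of dividing cells, had 7.09, 9.05 and 6.49 RPKM in Mettl3-deficient cells, against 8.39, 15.5 and 10.8 RPKM in wild-type cells, with unbound RNA the highest. Of the 21 genes, 14 passed 2-fold toward m6A-tagged over unbound RNA in Mettl3-deficient cells and 7 in wild-type cells, on a scale that understates the change of low genes. Of all genes below the minimum, 17.8% did so in Mettl3-deficient cells and 19.7% in wild-type cells, and of the 5072 with a mean of 1 to 10 RPKM, a range that holds 18 of the 21 genes and all that passed, 55.6% and 56.6%. Tmem48, the older symbol of the membrane nucleoporin Ndc1, had 26.3, 25.0 and 34.1 RPKM in Mettl3-deficient cells, against 23.4, 15.4 and 27.6 RPKM in wild-type cells.

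Other genes of nuclear transport, 26 in the tables and 18 above the minimum, give a wider view. Past 2-fold between m6A-tagged and unbound RNA, Mettl3-deficient cells had 7 of them higher and 4 lower, with a median of 0.01, and wild-type cells 3 higher and 6 lower, with a median of -0.70. The Mettl3-deficient counts lie near the 33.7% and 16.9% of all genes given above, and the difference from the 38 pore and transport genes was not tested. Ran, the GTPase that gives transport its direction, had 122, 418 and 201 RPKM in m6A-tagged, unbound and input RNA of Mettl3-deficient cells, against 177, 320 and 197 RPKM in wild-type cells. Its unbound value was the highest in both genotypes. Rangap1, the Ran GTPase activator at the cytoplasmic filaments, had 66.4, 14.1 and 60.7 RPKM in Mettl3-deficient cells, against 58.2, 66.2 and 61.9 RPKM in wild-type cells, and Cse1l, the exporter that recycles importin alpha, had a difference of 1.95 in Mettl3-deficient cells and 0.56 in wild-type cells. Nupl2, the nucleoporin now called Nup42, and Zc3h11a, an mRNA export factor, had 8.62 and 3.18 RPKM in Mettl3-deficient unbound RNA, against 1.00 and 0.98 RPKM in wild-type unbound RNA, and so went with Nup62 and Nup50. They were named after their values had been seen.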

How the data were processed

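Per the labels' protocols, libraries of the 3 fractions were made by Smart-seq2, with paired reads of 150 bases. Per the submitters' processing notes, mm10, Picard and edgeR were used, in roles that are not stated. The authors deposited RPKM, 1 column per genotype and fraction. The values show each column to be the mean of 3 libraries with 1 read added per gene and library, from which depths and, for a few low genes, reads per library were solved. The test planned for values per library could not be run. The 2 tables were joined on gene identifiers, since 25 names differ between them. Differences are log2((RPKM + 1)/(RPKM + 1)) over the 6295 genes averaging 10 RPKM or more, called at 2-fold. Alternatives were 0.1 or 5 RPKM added, no minimum or 50 RPKM, and median-ratio or upper-quartile scaling. Up to 10 called genes per direction and comparison, the best known gene of each role and the extremes of level were named. Members and lists were chosen with earlier results of these data known. Calculations used Python 3.11.15, pandas 2.3.3 and scipy 1.17.1, and the solving of reads was checked on simulated tables.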

Additional observations from a re-analysis of the deposited data

How the results depend on the processing

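No paired analysis was possible because each deposited column is the mean of 3 libraries, and leaving out replicates was not run for the same reason. Of 231 counts and medians recomputed, 185 kept their size and side. Single genes were followed only where past 2-fold, and none of those changed direction. Of 145 gene values past 2-fold, 23 moved by over 1.5 times with 0.1 RPKM added and 53 with 5 RPKM. With no minimum, all 59 genes gave 38 higher in m6A over unbound RNA of Mettl3-deficient cells and 16 in wild-type cells (22.2% and 22.9% of 23038 genes). Unbound RNA was then lower than input for 36 genes in Mettl3-deficient cells and 18 in wild-type cells (19.1% and 19.3%). m6A-tagged RNA was higher than input for 1 Mettl3-deficient gene and 2 wild-type genes (1.18% and 3.47% of all genes). It was lower for 5 wild-type genes (3.18%). Between genotypes, 8 genes were lower in input (5.31% of all genes) and 1 higher in m6A-tagged RNA (3.73%). The genotype differences were downward for 5 genes over unbound (12.4%) and 2 over input (3.39%). For the higher minimum, other added values and scaling, shares of all genes are not given, so those counts describe these genes alone. With a minimum of 50 RPKM, which leaves 12 genes, 3 medians changed sign. They were -0.25 in Mettl3-deficient m6A over unbound, 0.35 in Mettl3-deficient unbound over input and 0.21 in unbound RNA between genotypes, and the genotype difference over unbound had a median of 0.41. Counts there were 2 higher and 1 lower (Mettl3-deficient m6A over unbound), 2 higher and 3 lower (wild-type), 2 lower in unbound than in input in each genotype with 0 higher in wild-type cells, and 1 lower in wild-type m6A over input. Between genotypes 1 gene was lower in input, 0 in m6A-tagged and 3 in unbound RNA, and the genotype differences passed upward for 4 over unbound and 2 over input, with 0 downward over input. With 0.1 RPKM added, 1 gene was lower in Mettl3-deficient m6A over input and 1 higher in m6A-tagged RNA between genotypes. With 5 RPKM added, 0 were higher in wild-type unbound over input, 2 lower between genotypes in input and 2 in m6A-tagged RNA, and the genotype difference over input passed for 2 upward and 0 downward. Median-ratio scaling gave 2 lower in Mettl3-deficient m6A over input, 4 lower over unbound and 3 downward genotype differences over input. Upper-quartile scaling gave 2, 4 (wild-type over unbound) and 3, and 0 higher in wild-type unbound over input. Scaling moved the median of all genes by -0.28 in Mettl3-deficient m6A over unbound (median-ratio) and by 0.16 (upper-quartile). Without the 9 genes that overlap another coding gene, an alternative chosen after seeing the data, 1 gene was lower in Mettl3-deficient m6A over unbound, and 2 were higher in Mettl3-deficient and 0 in wild-type unbound over input. Causes were not tested beyond the fewer genes that a minimum or the overlap leaves.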
